A study of Rattus norvegicus with 2 samples.

Results

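The Hsp70 and Hsp90 chaperones of the endoplasmic reticulum (ER), the cytosol and the mitochondrion were compared in RNA that was pulled down with P180, also named RRBP1, a membrane protein of the ER that binds ribosomes. The 10 genes were chosen by symbol. The ER members were Hspa5, Hsp90b1, Hyou1 and Hspa13, the cytosolic members Hspa8, Hspa4, Hsp90aa1 and Hsp90ab1, and the mitochondrial members Hspa9 and Trap1. All 10 are among the 25628 genes of the count table and among the 11468 genes that reached 10 counts when both libraries were added up, called tested genes below. The bait was P180 fused to GFP and a tag that takes up biotin (P180-GFPbio) or, as the control, GFP with the same tag (GFPbio), and streptavidin beads collected the bait with bound RNA from rat primary cortical neurons. No further treatment was given. The sources used here do not say whether these neurons made the bait or it was made in HEK293T cells, a human kidney line, and loaded on the beads beforehand, as in the brain pull-downs of the study. Nor do they give the days in culture or the strain of the cortical cultures. The hippocampal cultures of the study came from Wistar rat embryos. 1 library of each pull-down was analysed, named P180 or GFP after its bait. By their names, 2 further columns of the table are a second library of each pull-down. They match no sample as given here and were not used, so every difference below compares these libraries, has no replicate check and carries no p-value.

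Hsp70 proteins bind short hydrophobic stretches of unfolded chains and release them in a cycle driven by ATP, which J-domain proteins start and nucleotide exchange factors complete. The large Hsp110 relatives, here Hyou1 and Hspa4, act as such exchange factors. Hsp90 proteins take over clients at a later stage of folding. Each compartment has its own copies. The ER members carry a signal sequence and are made on ribosomes at the ER membrane, the cytosolic members are made in the cytosol, and Hspa9 and Trap1 are encoded in the nucleus and imported into mitochondria after or during their synthesis. The families therefore set proteins of related sequence and function, but of different routes after translation, side by side in the RNA bound to an ER ribosome receptor.

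The compartments also differ in how their chaperone genes are switched on, and promoter sequence is shown because 3 of the 4 ER members hold an ER stress response element there and no other member with an entry does. An excess of unfolded protein in the ER acts through the ER stress response elements, whereas heat shock factor binds heat shock elements. Promoters from 250 bases before to 50 bases after the start site were taken from RefSeq (GRCr8 assembly) and searched on both strands. The letters were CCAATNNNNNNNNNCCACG for the ER stress response element, ATTGGNCCACG for its second form and GAANNTTCNNGAA for the heat shock element. Of 33469 promoters, 22 (0.0657%), 17 (0.0508%) and 267 (0.798%) held them. The first was found in Hspa5 and at 2 places in Hsp90b1, the second at 2 places in 1 of the 2 promoters listed for Hyou1, and the heat shock element at 2 places in Hspa8. No match was found in Hspa13, Hspa4, Hsp90ab1, Hspa9 and Trap1, which says only that these letters are not in this window, and Hsp90aa1 has no entry. A match is a description and not a bound site. Each window is written on the strand of its gene, with the match in capitals and 20 bases on either side.
Hspa5, chr3:38452953-38453011, plus strand: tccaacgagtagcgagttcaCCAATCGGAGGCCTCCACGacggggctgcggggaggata
Hsp90b1, chr7:23012431-23012489, minus strand: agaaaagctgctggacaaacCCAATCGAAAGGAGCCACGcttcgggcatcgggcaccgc
Hsp90b1, chr7:23012327-23012385, minus strand: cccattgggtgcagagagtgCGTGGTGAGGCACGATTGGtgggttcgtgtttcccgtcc
Hyou1, chr8:53602674-53602724, plus strand: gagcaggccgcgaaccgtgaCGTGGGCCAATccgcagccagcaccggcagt
Hyou1, chr8:53602774-53602824, plus strand: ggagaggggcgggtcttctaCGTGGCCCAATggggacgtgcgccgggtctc
Hspa8, chr8:50080281-50080333, plus strand: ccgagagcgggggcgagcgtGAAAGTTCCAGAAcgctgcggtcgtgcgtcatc
Hspa8, chr8:50080439-50080491, plus strand: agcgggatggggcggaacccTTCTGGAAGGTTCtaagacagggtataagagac

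The P180 library summed to 6298343 counts (13407 genes detected) and that of GFP to 8428358 (9345 genes detected). Division by a size factor, 0.846 for P180 and 1.18 for GFP, gives the scaled counts below. Rrbp1, the gene of P180 itself, stood 2.66-fold higher with P180 (3003 with P180 against 1129 scaled counts with GFP). With P180 120 tested genes had no count, with GFP 2343 (20.4%). The row of the shared GFP tag took 1.02% of all counts with P180 and 2.25% with GFP, and the 13 mitochondrially encoded genes took 7.31% with P180 and 16.6% with GFP. Markers of neurons differed little, with 1 of 10 at least 2-fold higher, 1 at least 2-fold lower, and a summed level, as counts scaled to a common library total (CPM), of 11398 CPM with P180 against 11601 CPM with GFP. Astrocyte markers stood higher with P180, 8 of 10 by at least 2-fold, with a summed level of 4679 CPM with P180 against 1263 CPM with GFP, and Aldh1l1 and Slc1a2 at 0 with GFP. Of 8 markers of dividing cells 6 were at least 2-fold higher and 1 lower, with 186 CPM with P180 against 94.2 CPM with GFP, and Mki67, Cdk1, Ccnb1 and Aurkb at 0 with GFP. Of 7 tested markers of the oligodendrocyte lineage 4 were at least 2-fold higher and 1 lower, with 619 CPM with P180 against 295 CPM with GFP, and Sox10 and Mbp at 0 with GFP. The chaperones are made by all of these cells, and the part of the cell mixture in their values was not tested. More cells of a type and more RNA per cell cannot be told apart in such libraries, nor, with no input library, can more RNA in the lysate and more RNA on P180.

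Every ER member stood higher with P180, by 1.62-fold to 2.28-fold. Hspa5 (BiP), the Hsp70 of the ER lumen, which also holds the translocon shut and restrains the sensors of unfolded protein, had 4245 counts with P180 and 3664 with GFP. After scaling, P180 gave 5017 counts (95% exact Poisson interval 4868 to 5171) against 3100 with GFP (3000 to 3202), a ratio of 1.62 (95% exact counting interval 1.55 to 1.69). All intervals cover counting error only, since 1 library of each pull-down gives no spread between replicates. They are too narrow even for that if reads copied by amplification were counted, because such reads are no independent molecules. Hspa5 thus stood under 2-fold in spite of its deep counts.
Hsp90b1 (GRP94), the Hsp90 of the ER lumen that folds integrins and Toll-like receptors, had 2196 counts with P180 and 1394 with GFP. Its scaled counts were 2596 with P180 against 1179 with GFP, a ratio of 2.20 (2.06 to 2.36). Hspa13 (STCH), a short Hsp70 of the microsomal fraction that consists mainly of the ATPase part, had 3059 counts with P180 against 1876 with GFP, or 3616 with P180 against 1587 with GFP after scaling, a ratio of 2.28 (2.15 to 2.41). These are the members of the ER group that passed 2-fold.
Hyou1 (GRP170), the ER relative of Hsp110 and an exchange factor for Hspa5, was the most thinly counted ER member. It had 273 counts with P180 and 208 with GFP, or 323 with P180 against 176 scaled counts with GFP. The ratio of 1.83 (1.53 to 2.21) has an interval that includes 2-fold.

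The cytosolic members covered a wider range than the ER members and held both the highest and the lowest ratio of the 10. Hspa4 (Apg-2), the cytosolic Hsp110 relative and exchange factor, had 1239 counts with P180 and 652 with GFP. Its scaled counts were 1464 with P180 against 552 with GFP, a ratio of 2.65 (2.41 to 2.92), above every ER member. It was also the only cytosolic member past 2-fold.
Hsp90aa1, the stress-inducible cytosolic Hsp90, had 17535 counts with P180 and 15387 with GFP, which is 2784 CPM with P180 against 1826 CPM with GFP. Its ratio, from scaled counts and not from the CPM, was 1.59 (1.56 to 1.63). Hsp90ab1, its constitutive partner, had 22344 counts with P180 against 17496 with GFP, or 3548 CPM with P180 against 2076 CPM with GFP. The ratio of its scaled counts was 1.78 (1.75 to 1.82). Both were among the best counted members, and the interval of each stayed under 2-fold.
Hspa8 (Hsc70), the constitutive Hsp70 of the cytosol, had only 34 counts with P180 and 44 with GFP. This is 5.40 CPM with P180 against 5.22 CPM with GFP. The ratio of scaled counts was 1.08 (0.669 to 1.73), so that no direction could be told at this depth. RefSeq (GRCr8) lists 33 pseudogenes named after Hspa8, 22 after Hsp90ab1, 14 after Hsp90aa1, 2 each after Hsp90b1 and Hspa9, and 0 after the other members. Reads that fit more than one place in the genome had been thrown away by the authors, so values of genes with near-identical copies are uncertain. None of these pseudogenes has a row under its RefSeq symbol in the count table, and rows under other names were not searched for. The part of the pseudogenes in the low counts of Hspa8 was not tested.

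The mitochondrial members were close to each other. Hspa9 (mortalin), the mitochondrial Hsp70 that draws imported chains through the inner membrane, had 605 counts with P180 and 482 with GFP, or 715 with P180 against 408 with GFP after scaling. Its ratio was 1.75 (1.55 to 1.98). Trap1, the mitochondrial Hsp90, had 686 counts with P180 against 531 with GFP, or 811 with P180 against 449 scaled counts with GFP, and a ratio of 1.80 (1.61 to 2.03). The difference between the log2 ratios of Hspa9 and Trap1, -0.04, had a counting interval of -0.28 to 0.20. All of these scaled counts are drawn in the plot of the 10 genes by library.

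**Figure D1:**
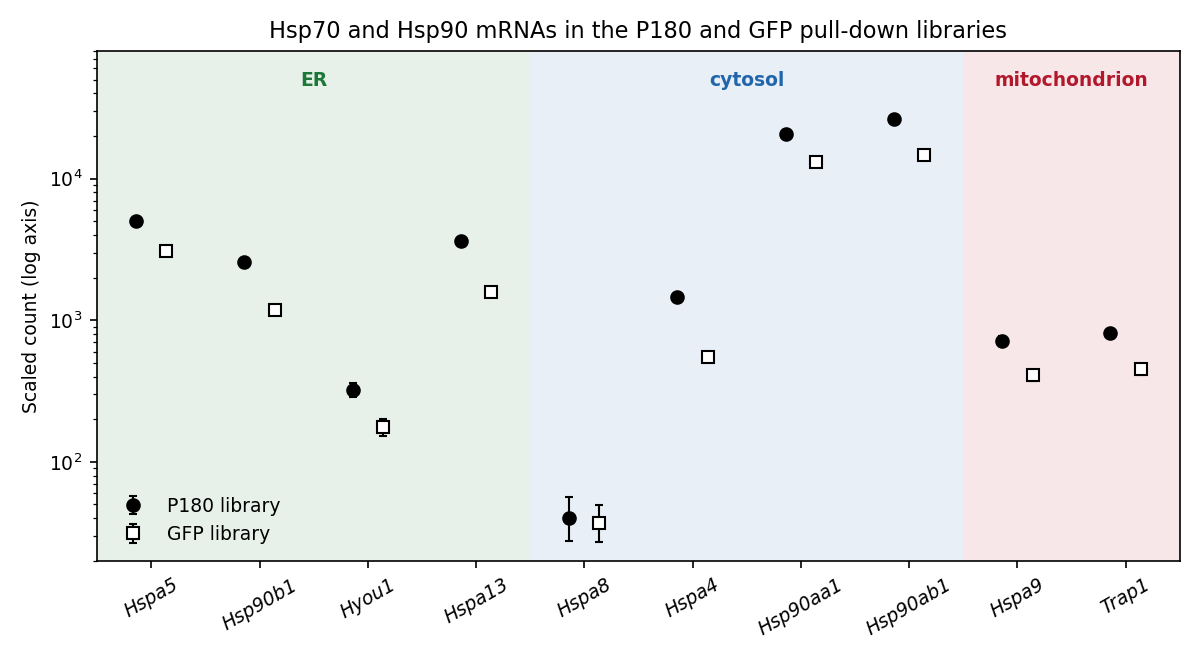
Scaled counts (log axis) of the 10 chaperone genes with P180 (filled circles) and with GFP (open squares), grouped by the compartment of the protein; bars are 95% exact Poisson intervals, often smaller than the symbols. The P180 library is higher for 9 genes, and the intervals overlap for Hspa8 (40.2 with P180 against 37.2 scaled counts with GFP).

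On the log2 scale, with 1 scaled count added to both libraries, the 10 members ran from 0.11 for Hspa8 to 1.41 for Hspa4. In order they were Hspa4 (1.41), Hspa13 (1.19), Hsp90b1 (1.14), Hyou1 (0.87), Trap1 (0.85), Hsp90ab1 (0.84), Hspa9 (0.81), Hspa5 (0.69), Hsp90aa1 (0.67) and Hspa8 (0.11). The compartments interleave in this order. Counting error does not separate Hspa13 from Hsp90b1 (difference 0.05 with Hspa13 higher, and 0 inside its interval), nor Hsp90b1 from Hyou1 (0.26, interval -0.02 to 0.55), nor Hspa5 from Hsp90aa1 (0.02, -0.05 to 0.10). It does separate Hspa4 from Hspa13, which was lower by 0.22 (interval of Hspa13 minus Hspa4 -0.38 to -0.06).

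**Figure D2:**
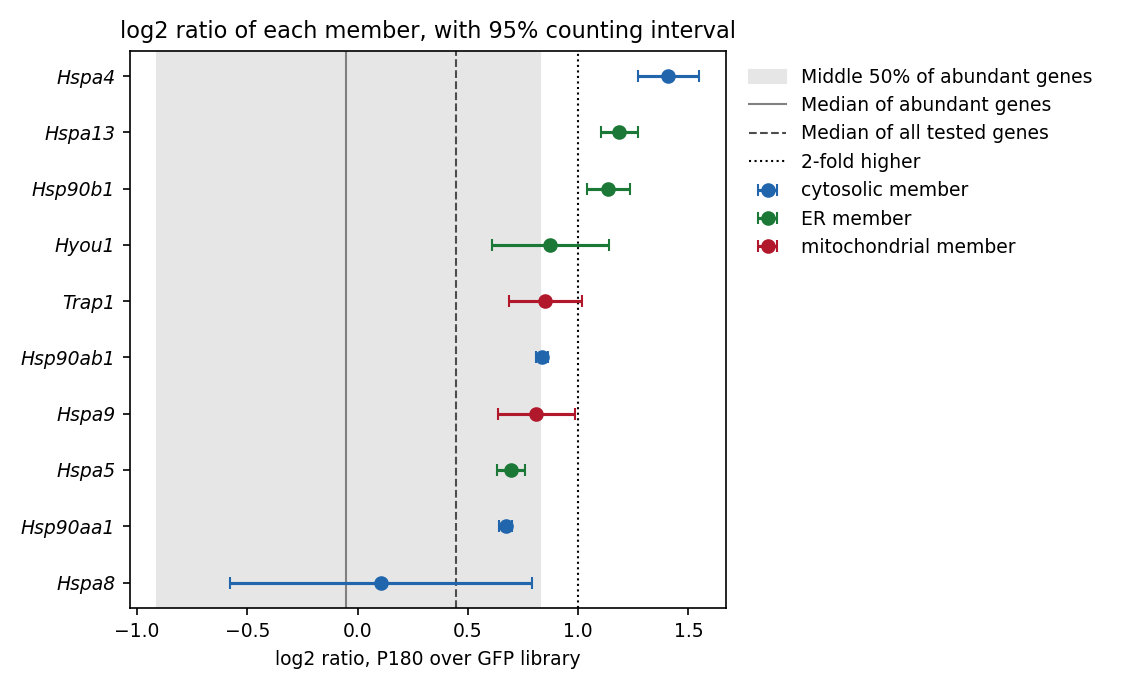
log2 ratio of each member, P180 over GFP library, with its 95% exact counting interval and coloured by compartment; the grey band is the middle 50% of abundant genes (-0.91 to 0.83) and the dotted line marks 2-fold. Hspa4, Hspa13 and Hsp90b1 lie beyond 2-fold; with scaling by totals that omit mitochondrially encoded genes and the tag only Hspa4 does, and Hspa8 changes sign.

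Of the 10 members, Hsp90b1, Hspa13 and Hspa4 (3 genes) passed 2-fold upwards with P180 and 0 downwards. Over all tested genes 40.6% were at least 2-fold higher and 19.9% at least 2-fold lower, so the share of members that passed was not above the background. Much of that background comes from sparse genes, which were called against a floor of 3 counts where the GFP library had none. Among the 6578 abundant genes, which are counted in each library and average 100 scaled counts or more, 21.5% were higher and 22.9% lower. All members but Hspa8 are abundant in this sense, and the 3 past 2-fold are among them. Their share of the abundant members was above 21.5%, a difference that was not tested. The abundant members lay between percentile 71.2 (Hsp90aa1) and percentile 85.3 (Hspa4) of the log2 ratios of the abundant genes.
The number past 2-fold depended on the scaling. With totals that omit mitochondrially encoded genes and the tag, only Hspa4 remained past it, and 37.4% of all tested genes were higher. That scaling moved the median log2 ratio of all tested genes from 0.45 by -0.23, and the members moved with it.
The ratios of the members were shared by many genes. The counting interval of Hspa5 (0.63 to 0.76 on the log2 scale) held the log2 ratios of 265 other tested genes, and that of Hsp90b1 (1.04 to 1.24) those of 295.

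**Figure D3:**
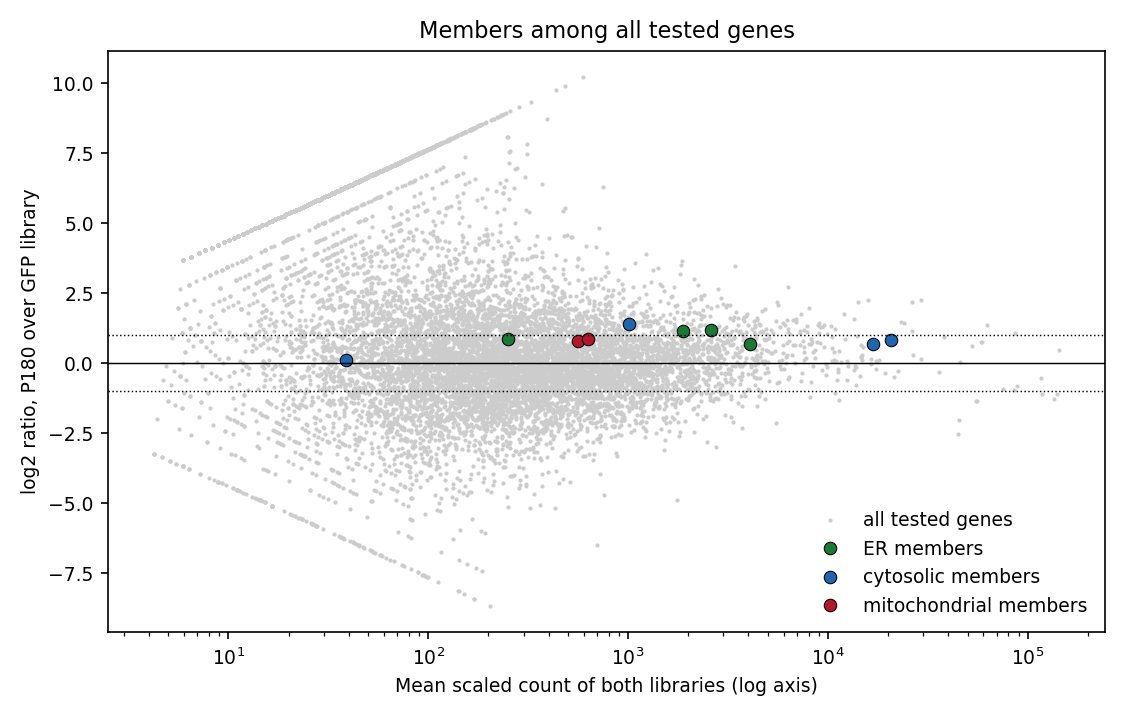
log2 ratio, P180 over GFP library, against the mean scaled count of both libraries (log axis) for all 11468 tested genes (grey) and the 10 members, coloured by compartment. Members of all 3 compartments lie above 0 inside the cloud; the dotted lines mark 2-fold, and with totals that omit mitochondrially encoded genes and the tag Hspa8 falls to -0.12.

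The medians of the compartments lay within 0.25 of each other on the log2 scale. The median log2 ratio was 1.00 for the 4 ER members, 0.75 for the 4 cytosolic members and 0.83 for the 2 mitochondrial members, against 0.45 over all tested genes and -0.05 over abundant genes. The ranges were 0.69 to 1.19 for ER members and 0.11 to 1.41 for cytosolic members, so that the ER range lay inside the cytosolic one. The ER median stood above the cytosolic median by 0.25, or by 0.17 when Hspa8 was left out, a choice made after seeing the data. The ER median itself was 0.87 without Hsp90b1 or without Hspa13, and 1.14 without Hspa5 or without Hyou1. It stood above the mitochondrial median by 0.17. With the counts of a group summed, ER members had 1552 CPM with P180 and 847 CPM with GFP. The log2 ratio of their sums, divided by the size factors and not taken from the CPM, was 0.93 (0.89 to 0.98). Cytosolic members had 6534 CPM with P180 against 3984 CPM with GFP (log2 ratio by size factors 0.78, 0.75 to 0.80). Mitochondrial members had 205 CPM with P180 against 120.2 CPM with GFP (0.83, 0.71 to 0.95). Nearly all of the cytosolic sum came from Hsp90aa1 and Hsp90ab1, so it says little on Hspa4 and Hspa8. These 2 Hsp90 genes gave 17535 and 22344 of its 41152 counts with P180, and 15387 and 17496 of 33579 with GFP.

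Setting Hspa5, Hsp90b1 and Hyou1 against their paralogs in the other compartments removes the scaling, since a difference of 2 log2 ratios does not depend on it. The 6 pairs went in both directions, and their intervals are not adjusted for their number. In the Hsp90 family the ER copy had the higher ratio. Hsp90b1 exceeded Hsp90aa1 by 0.47 (95% exact conditional interval 0.36 to 0.57), Hsp90ab1 by 0.30 (0.20 to 0.40) and mitochondrial Trap1 by 0.29 (0.09 to 0.48), which is 1.38-fold, 1.23-fold and 1.22-fold. For the Hsp110 pair of Hyou1 and Hspa4 the order was the opposite. Hyou1 minus Hspa4 was -0.53 (-0.83 to -0.23), so that Hyou1 had 0.691 times the ratio of Hspa4. For Hspa5 no difference from its paralogs was detectable at this depth, with Hspa5 minus Hspa8 at 0.58 (-0.10 to 1.28) and Hspa5 minus Hspa9 at -0.12 (-0.30 to 0.07). Hspa13, the other Hsp70 of the ER and not among the 6 pairs, exceeded Hspa8 by 1.08 (0.39 to 1.77) and Hspa9 by 0.38 (0.18 to 0.57).
Across all 16 pairs of an ER and a cytosolic member, the interval lay above 0 for 7, below 0 for 5 and held 0 for 4. Of the 7, 3 were against Hspa8. Across the 8 pairs of an ER and a mitochondrial member, 4 lay above 0, all with Hsp90b1 or Hspa13, and 4 held 0, all with Hspa5 or Hyou1. Hsp90b1 and Hspa13 thus lay above the mitochondrial members, and Hspa5 and Hyou1 were not separated from them. This is no clean split of the ER members, since the interval of Hsp90b1 minus Hyou1, the thinly counted member, also held 0.

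**Figure D4:**
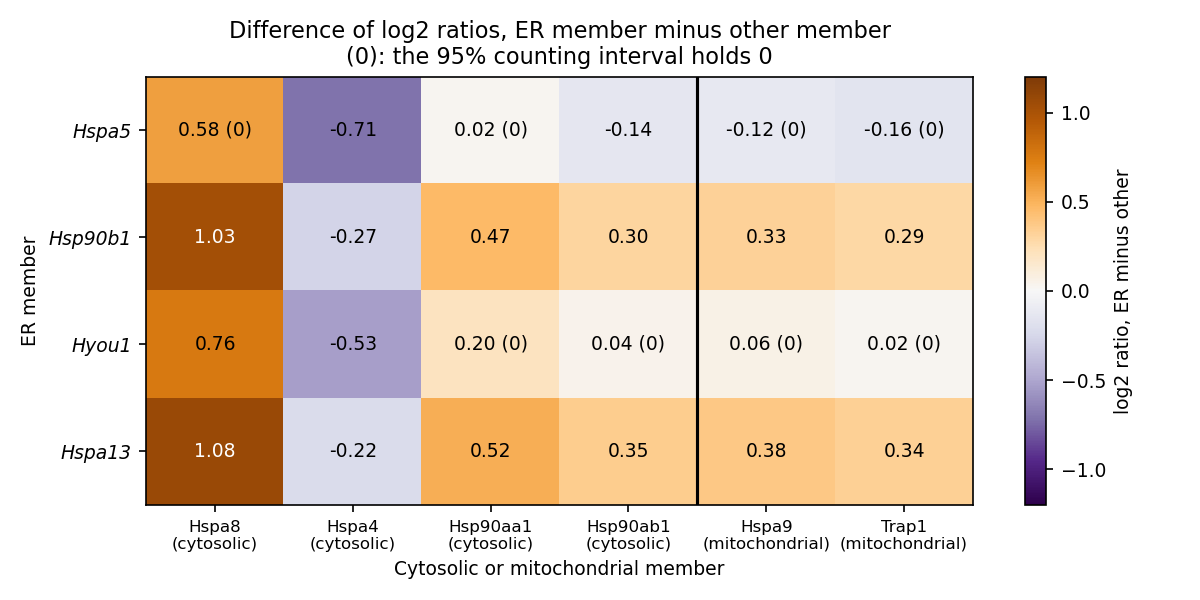
Difference of log2 ratios, ER member (rows) minus cytosolic or mitochondrial member (columns), with the value in each cell and (0) where its 95% exact conditional interval holds 0. Rows of Hsp90b1 and Hspa13 are positive except against Hspa4, where they are -0.27 and -0.22, and the column of Hspa4 is negative throughout.

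The same counts can be read as the make-up of the members of each family within a library, as shares of counts and not of RNA per length. Hsp90b1 took 5.14% of the counts of the 4 Hsp90 genes with P180 (exact binomial interval 4.93 to 5.35) and 4.00% with GFP (3.80 to 4.22). Hsp90aa1 took 41.0% with P180 against 44.2% with GFP, and Hsp90ab1 52.3% with P180 against 50.3% with GFP. Of the counts of Hyou1 and Hspa4 together, Hyou1 took 18.1% with P180 (16.1 to 20.1) and 24.2% with GFP (21.4 to 27.2). The other Hsp110 genes, Hsph1 (2221 counts with P180, 2462 with GFP) and Hspa4l (97 and 0), are not in that sum. The share of Hyou1 is therefore not one of the whole family. Among the Hsp70 members Hspa5, Hspa8, Hspa9 and Hspa13, Hspa13 took 38.5% (37.4 to 39.6) with P180 against 30.9% (29.8 to 32.1) with GFP. Hspa5 took 53.4% (52.3 to 54.5) with P180 against 60.4% (59.2 to 61.6) with GFP. Within the sum of these members the GFP library thus held relatively more Hspa5 and the P180 library relatively more Hspa13. Not in that sum are Hspa12a (549 counts with P180, 1049 with GFP), Hspa14 (104 and 43) and Hspa2 (22 and 46). The few counts of Hspa8 are part of it.

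Other genes of the families were followed in a list of 9, of which 7 are in the table and 5 were tested. Hsph1 (Hsp105), another cytosolic Hsp110, had 2221 counts with P180 and 2462 with GFP, a log2 ratio of 0.33 (0.25 to 0.42). This was well under that of Hspa4 and also under that of the ER relative Hyou1 (0.87, 0.61 to 1.14). The order of Hyou1 and Hspa4 thus did not hold for Hyou1 and Hsph1. Hspa4l, the third cytosolic Hsp110, had 97 counts with P180 against 0 with GFP and stood 45.2-fold higher when GFP was set to the floor (36.0-fold at its lower counting limit). It shares the lack of counts with GFP with 20.4% of tested genes. Of the cytosolic Hsp110 genes counted in both libraries, Hspa4 and Hsph1 lay apart (1.41 against 0.33). Hspa14, which binds ribosomes together with a J-domain partner in human cells, had 104 counts with P180 against 43 with GFP (log2 ratio 1.73, 1.23 to 2.30). The distant family member Hspa12a had 549 counts with P180 and 1049 with GFP (-0.45, -0.60 to -0.30), and Hspa2 had 22 with P180 against 46 with GFP (-0.56, -1.39 to 0.18). The stress-inducible Hspa1a and Hspa1b were not matched by symbol.

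Of the partner lists, that of the ER had the highest median. Of its 18 tested genes, 11 passed 2-fold upwards and 1 downwards (61.1% higher, against 40.6% of all tested genes), with a median log2 ratio of 1.33. Of the 11, 2 (Dnajc1 and Sdf2l1) had no count with GFP. Sdf2l1, Dnajb9 and Pdia4 are also in the list of the unfolded protein response below. Of the 15 abundant ER partners 8 were higher and 1 lower, against 21.5% and 22.9% of abundant genes. Among J-domain proteins that drive Hspa5, Dnajb11 had 502 counts with P180 and 200 with GFP (1.80, 1.57 to 2.05), and the translocon component Sec63 had 751 with P180 against 343 with GFP (1.61, 1.43 to 1.80). Dnajc3, another of these, had 115 counts with P180 against 50 with GFP (1.66, 1.19 to 2.19). The exchange factor Sil1 went the other way, with 70 counts with P180 against 157 with GFP (-0.68, -1.11 to -0.27), as did Dnajb9, which recruits Hspa5 to a stress sensor and to proteins for degradation (93 with P180 against 421 counts with GFP, -1.69, -2.04 to -1.37). Cnpy3, a cochaperone of Hsp90b1 for Toll-like receptors, had the highest ratio among the partners with counts in both libraries, with 847 counts with P180 and 51 with GFP (4.50, 4.13 to 4.97). Of the lectin chaperones and disulfide isomerases in the list, P4hb stood at 1.75, Pdia6 at 1.35, Calr at 1.31, Canx at 1.11, Pdia3 at 0.97, Pdia4 at 0.69 and the J-domain reductase Dnajc10 at 0.28. Of these P4hb, Pdia6, Calr and Canx passed 2-fold.
Partners of cytosolic Hsp90 and Hsp70 were mixed. Of 27 tested, 11 were at least 2-fold higher and 0 lower (40.7% higher), with a median of 0.58, but 5 of the 11 had no count with GFP. Of the 22 abundant ones 6 were higher and 0 lower. Ahsa1, which speeds the ATPase of Hsp90, had 582 counts with P180 and 82 with GFP (3.29, 2.97 to 3.66). Stip1, which joins Hsp70 to Hsp90, had 1175 with P180 against 524 with GFP (1.65, 1.50 to 1.80), and the prolyl isomerase Fkbp4 had 1541 with P180 against 688 with GFP (1.64, 1.52 to 1.78). Against these, the ubiquitin ligase Stub1 had 1113 counts with P180 and 2472 with GFP (-0.67, -0.77 to -0.57), and the J-domain protein Dnaja2 had 1060 with P180 against 2231 with GFP (-0.59, -0.70 to -0.49).
Partners in mitochondria pointed both ways. Of 12 tested, 4 were at least 2-fold higher and 5 at least 2-fold lower (33.3% higher), with a median of 0.03. Of the 9 abundant ones 1 was higher and 5 lower, with a median of -1.14. Timm44, which holds Hspa9 at the import channel, had 10 counts with P180 and 364 with GFP (-4.59, -5.78 to -3.81). Dnlz, which keeps Hspa9 soluble, had 368 with P180 against 2220 with GFP (-2.11, -2.27 to -1.95), and the J-domain protein Dnaja3 had 321 with P180 against 1752 with GFP (-1.96, -2.14 to -1.79). The exchange factors split, with Grpel1 at 273 counts with P180 and 0 with GFP (127-fold higher with GFP set to the floor, 102.7-fold at its lower counting limit). Grpel2 had 52 counts with P180 against 285 with GFP (-1.95, -2.43 to -1.54). Hspa9 and Trap1, at 0.81 and 0.85, lay inside this spread. The chaperonin Hspd1 (490 with P180 against 182 counts with GFP, 1.90) and its lid Hspe1 (854 with P180 against 1858 counts with GFP, -0.64), which work as one machine, also stood on opposite sides.

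Genes known to be induced along with members of the ER or of the cytosol were counted as well. Of 14 tested genes of the unfolded protein response, 5 were at least 2-fold higher and 2 at least 2-fold lower (35.7% higher, against 40.6% of all tested genes), with a median log2 ratio of 0.77. Of those 5, 3 had no count with GFP, and of the 11 abundant genes 2 were higher and 2 lower. The transcription factor Xbp1 had 449 counts with P180 and 191 with GFP (1.71, 1.47 to 1.97) and Herpud1, of the degradation machinery, 192 with P180 against 147 with GFP (0.86, 0.55 to 1.19). Atf4, the transcription factor of the integrated stress response, had 343 counts with P180 against 1032 with GFP (-1.10, -1.29 to -0.93), and Ddit3, one of its targets, 14 with P180 against 0 with GFP. These genes did not move one way. The list for heat shock factor had 9 tested genes, which include the factors Hsf1 and Hsf2 themselves beside induced genes. Of the 9, 4 were higher and 0 lower (44.4% higher, again against 40.6%), with a median of 0.33. Of those 4, Bag3, Hspb8 and Cryab had between 14 and 33 counts with P180 and 0 with GFP, while Dnajb1, a classical target, had 272 counts with P180 and 497 with GFP (-0.39, -0.61 to -0.17).
The promoter search gave a second grouping. Of the 22 tested genes with either ER stress response element, 3 of them members, 8 were at least 2-fold higher and 0 at least 2-fold lower (36.4% higher), with a median log2 ratio of 0.85. Of the 8579 tested genes with any promoter entry 40.2% were higher, with a median of 0.45, so the share over all tested genes was not above the background. Of the 17 abundant genes with either element 6 were higher and 0 lower, with a median of 0.86. Of the 5117 abundant genes with any promoter entry 1126 were higher and 1125 lower, with a median of -0.04. Under totals that omit mitochondrially encoded genes and the tag, 6 of the 22 were higher and 4 lower. Under median-of-ratios scaling the 8 higher were Hsp90b1, Calr (1.31), Canx (1.11), Dnajb11 (1.80), Dnajc3 (1.66), Creld2 (1.59), Xbp1 (1.71) and the cell division gene Birc5 (3.05, from 24 counts with P180 against 3 with GFP). Those not called, Hspa5, Hyou1 and Herpud1 (0.86) among them, ran from -0.94 (Zfp57) to 0.97 (Ankmy2), with Ero1b, an oxidase of the ER, at -0.87. Of 41 tested genes with a heat shock element, Hspa8 among them, 12 were higher and 7 lower (29.3% higher, under the same 40.2%), with a median of 0.11. Of the 28 abundant ones 6 were higher and 5 lower, with a median of -0.30.

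**Figure D5:**
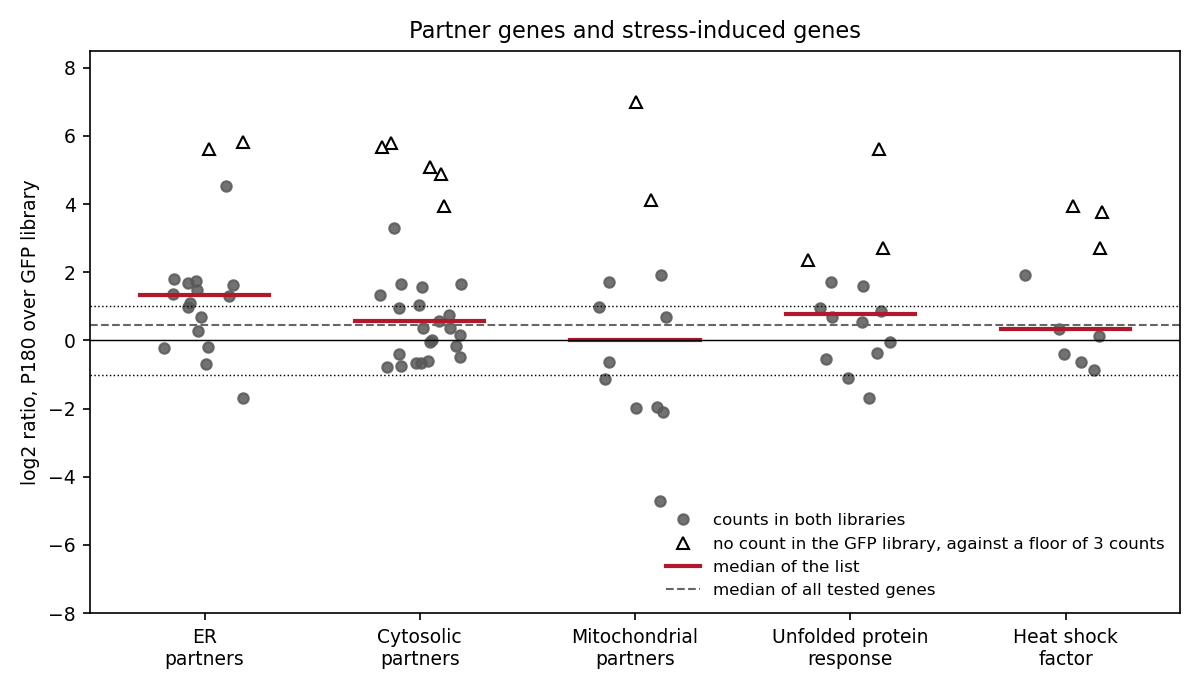
log2 ratio, P180 over GFP library, of each tested gene in 5 lists; circles have counts in both libraries, open triangles have none with GFP and are placed against a floor of 3 counts, red bars are list medians, the dashed line is the median of all tested genes (0.45) and dotted lines mark 2-fold. ER partners have the highest median (1.33) and mitochondrial partners the lowest (0.03, or -0.21 with totals that omit mitochondrially encoded genes and the tag), with values on both sides of 0 in every list.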

How the data were processed

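RNA pulled down with P180-GFPbio or GFPbio was measured in 1 library each. The authors deposited raw counts per gene. Per their methods, adapted CEL-Seq2 libraries, which tag the 3' ends of mRNAs, were demultiplexed with je-suite, aligned to mRatBN7 and counted with STARsolo 2.7.10a (also named in the submitters' processing notes), and reads that fit more than one place were thrown away. The sources used here name no annotation release and do not say whether copies were collapsed by molecular identifier. Counts of 3' ends were not divided by length. Within a library genes were compared only as shares of the counts of the members of their family. 2 further columns of counts, by their names a second library of each pull-down, match no sample as given here and were not used, so the authors' DESeq2 test, which needs replicates, was not repeated. Also left out were 92 rows of spike-ins (2 counts with P180, 9 with GFP).

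Genes that reached 10 counts in the sum of both libraries were scaled by median-of-ratios size factors. The log2 ratio is P180 over GFP with 1 scaled count added. Ratios have 95% Clopper-Pearson counting intervals (without the added count), differences of ratios exact conditional intervals, and the interval of a median is the median of its members' bounds. A gene at 0 was set to a floor of 3 counts per library for folds and calls. Called means at least 2-fold. Members and lists were chosen with earlier results of these data known. The genes named are the members, Rrbp1, the tag and tested genes of the lists. The planned comparison of protein ends needs protein sequences, which were not used here. Alternatives were TMM scaling, total counts with and without mitochondrially encoded genes and the tag, minimums of 1 and 50 counts, 5 scaled counts added, thinning of the GFP library to the total of the P180 library and leaving out single members. Calls from the log2 ratio and the counting intervals of ratios were tested on simulated Poisson counts, for genes averaging at least 50 scaled counts. The floor, the intervals of differences, the medians and the motif search were not tested in this way, and copies by amplification were not simulated. Python 3.11.15, numpy 2.4.6, pandas 2.3.3, scipy 1.17.1, R 4.3.3 and edgeR 4.0.16 (TMM factors only) were used. Motif searches used RefSeq promoters (GRCr8), in which 9 of the 10 members matched by symbol.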

Additional observations from a re-analysis of the deposited data

How the results depend on the processing

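The members kept their sign under every alternative except Hspa8, whose log2 ratio ran from -0.12 to 0.14. No paired analysis was possible because 1 library of each pull-down could be matched to a sample, and the columns named as a second one were not used. TMM scaling, 5 scaled counts added, a minimum of 1 count and thinning of the GFP library left all member values inside their counting intervals. Scaling by totals that omit mitochondrially encoded genes and the tag, with the median of all tested genes shifted by -0.23, lowered the medians to 0.77 for ER, 0.52 for cytosolic and 0.59 for mitochondrial members, and left 1 member instead of 3 at least 2-fold higher. Total counts gave 0.69 for cytosolic members. Under median-of-ratios scaling the cytosolic median of 0.75 became 0.84 without Hspa8 or Hsp90aa1 and 0.67 without Hspa4 or Hsp90ab1, and the ER median of 1.00 became 0.87 without Hsp90b1 or Hspa13 and 1.14 without Hspa5 or Hyou1. With a minimum of 50 counts, 2836 of 9310 tested genes were at least 2-fold higher, against 4652 of 11468, since fewer sparse genes were tested. The differences between paralogs cannot change with the scaling or the minimum count. Only 5 scaled counts added and thinning could move them, and under both they kept their sign. The main intervals of Hspa5 minus Hspa8 and of Hspa5 minus Hspa9 hold 0. With 34 counts with P180 and 44 with GFP for Hspa8, the depth limits every statement on it.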

Other observations

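Other chaperone systems of the cytosol were followed as whole families chosen after the members' values were seen, and were not tested against the members. The TRiC/CCT chaperonin, a ring of 8 different subunits that folds actin and tubulin, had 0 of 8 subunits at least 2-fold higher or lower, with a median log2 ratio of 0.43. Its subunits nevertheless differed among themselves, with Tcp1 at 1.00 (1701 counts with P180, 1189 with GFP; 95% exact counting interval 0.89 to 1.11) and Cct6a at -0.57 (1431 counts with P180, 2977 with GFP; -0.67 to -0.48), although the proteins are assembled in equal number. Of 5 tested subunits of prefoldin, which hands clients to the chaperonin, Pfdn4 was the one called, with 109 counts with P180 and 1224 with GFP (-3.00, -3.30 to -2.72), and the median was -0.52. With scaling by totals that omit mitochondrially encoded genes and the tag, 2 of the 5 were at least 2-fold lower. Of the 9 small heat shock proteins listed 3 were tested, and all had 0 counts with GFP, with Hspb6 at 99 counts with P180. The tested markers of microglia (2) and of vessel cells (2) were likewise at 0 with GFP. None of these differences has a replicate check.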
